A study of Mus musculus with 6 samples.

Results

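Matricellular proteins were examined at the level of their transcripts in mouse cardiac fibroblasts with and without TGFβ. The genes were chosen by symbol, as the 5 thrombospondins (*Thbs1*, *Thbs2*, *Thbs3*, *Thbs4* and *Comp*), the tenascins *Tnc* and *Tnxb*, and 3 related secreted proteins (*Sparc*, *Spp1* and *Tgfbi*). All 10 were found among the 25140 genes listed, and all 10 had enough counts to be tested. The cells were primary fibroblasts from the adult hearts of C57BL/6 mice at passage 1, grown with 10% fetal bovine serum in medium with 25 mM glucose. According to the sample labels, the serum was lowered to 1% for 16 h and was 1% during treatment. The study's methods instead give 24 h of 1% serum before treatment, and the same serum during it. The cells then received vehicle (3 libraries) or TGFβ at 10 ng/mL (3 libraries) for 24 h. The study describes the libraries as biological replicates, without saying whether each came from separate animals. The p-values therefore rest on the spread between these cultures. Its methods name cardiac fibroblasts, as the labels do, while its results text speaks of embryonic fibroblasts. Stranded poly(A) libraries were read as single ends of 75 bases and held 27851677 to 31072338 counts each. The columns of a group carry no replicate number, so the libraries are called A, B and C in the order listed, and whether a vehicle library and a TGFβ library of the same letter belong together is not known. No pairing was assumed.

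Matricellular proteins are secreted into the extracellular matrix, where they act less as structural fibers than as signals between the matrix, growth factors and cell surface receptors. Thrombospondins assemble as trimers (thrombospondin 1 and 2) or pentamers (thrombospondin 3, 4 and cartilage oligomeric matrix protein, the product of *Comp*), and thrombospondin 1 can activate latent TGFβ. Most are scarce in the healthy adult heart and rise after injury, when fibroblasts become myofibroblasts, the contractile cells that lay down scar.

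The cells carried the transcripts of fibroblasts and of a response to TGFβ. Summed levels of 8 fibroblast markers (among them *Col1a1*, *Col1a2*, *Pdgfra* and *Dcn*) were 38004 to 42770 CPM (counts divided by the scaled size of the library) in vehicle and 41496 to 44957 CPM with TGFβ. Of these markers, 6 were called lower (*Pdgfra*, *Tcf21*, *Lum*, *Dcn*, *Ddr2* and *Vim*, with log2 fold changes of -1.37 to -0.24) and none was called higher. The share called lower was 75%, against 20.1% of all genes tested. Most of the sum came from *Col1a1* and *Col1a2* (vehicle means of 19992 and 13656.5 CPM). Both were not called, with log2 fold changes of 0.23 and 0.13. Among known TGFβ response genes, *Ccn2*, *Acta2*, *Postn* and *Skil* were higher with TGFβ, with log2 fold changes from 0.94 to 1.55, and *Smad7* did not pass the test (log2 fold change 0.02, SE 0.07, adjusted p = 0.881). Adjusted p-values here and below come from the quasi-likelihood test of edgeR, corrected by the Benjamini-Hochberg method over the 14334 genes tested, and a gene was called changed below 0.05. In RNA from bulk cultures, fewer cells of a type and less RNA per cell cannot be told apart.

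TGFβ raised *Thbs1*, *Thbs4* and *Tnc* and lowered *Tnxb*, whereas *Thbs2*, *Thbs3*, *Comp*, *Sparc*, *Spp1* and *Tgfbi* did not pass the test. The called genes made up 4 of 10, or 40%, against 40.7% of all genes tested, so the share called was close to that of the transcriptome. The 3 genes called higher compare with 20.5% of all genes, and the 1 called lower with 20.1%. The size of change spread widely within the group. The median absolute log2 fold change of the 10 genes was 0.37, against 0.21 over all genes tested, and the median signed value was 0.20, against -0.0013. Each median lay between genes that were not called. For the absolute value these were *Thbs3* (-0.20) and *Spp1* (0.55), and for the signed value *Tgfbi* (0.19) and *Comp* (0.20). Transcripts of the 10 genes took 1.28 to 1.34% of all counts in vehicle libraries and 1.65 to 1.80% with TGFβ. Without *Sparc*, the share was 0.282 to 0.328% in vehicle and 0.592 to 0.711% with TGFβ. Most of that rise was *Thbs1*, which alone took 0.117 to 0.158% in vehicle and 0.413 to 0.513% with TGFβ.

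**Figure D1:**
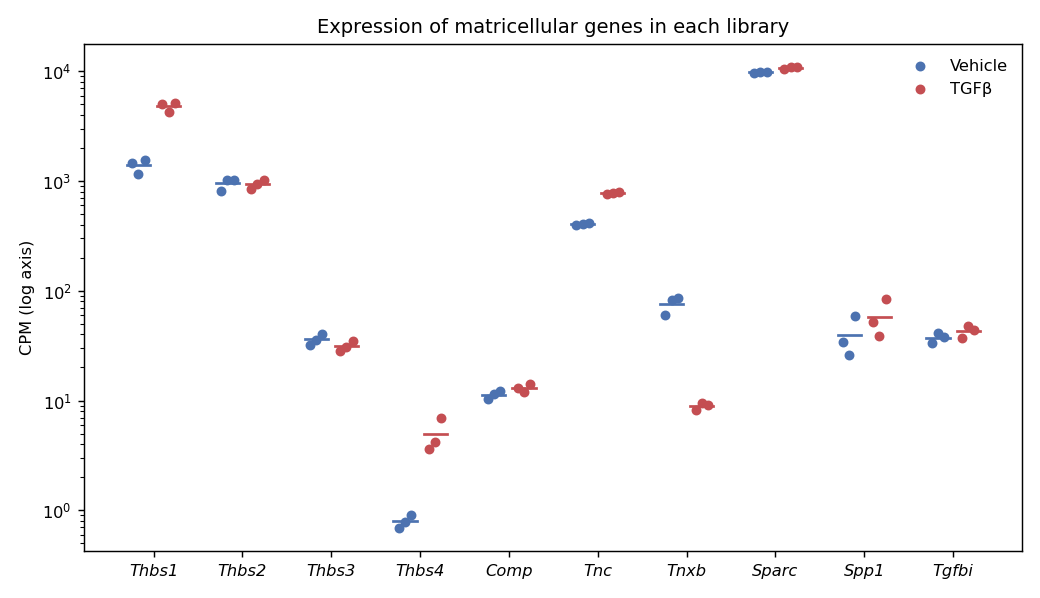
Level of each matricellular gene in every library, in CPM on a log axis, for 3 vehicle (blue) and 3 TGFβ (red) libraries; points are libraries in the order A, B, C and bars are group means. Groups do not overlap for *Thbs1*, *Thbs4*, *Tnc*, *Tnxb* and *Sparc*, while the points of *Spp1* spread as widely within a group as between groups.

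**Figure D2:**
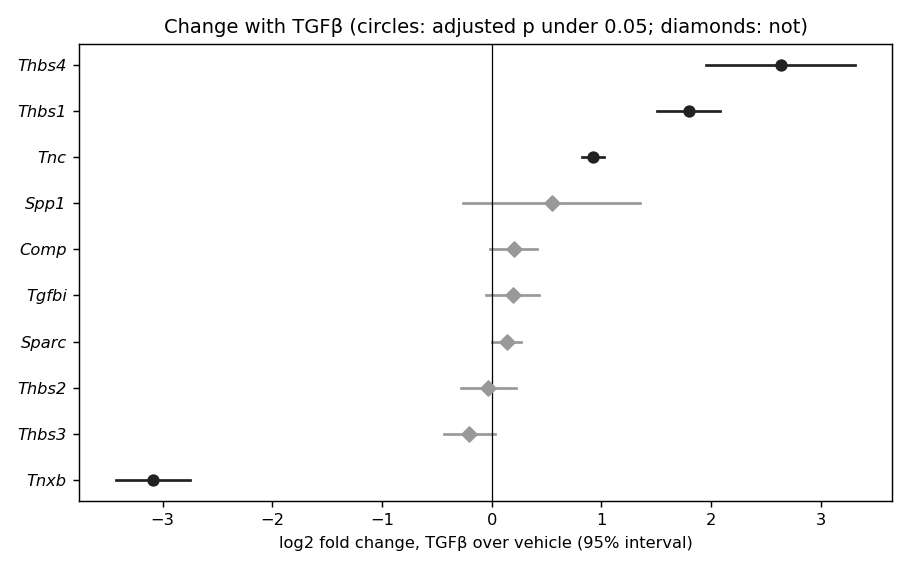
Change with TGFβ, as log2 fold change over vehicle, of the 10 genes with 95% intervals from edgeR's quasi-likelihood fit (n = 3 libraries a group). *Thbs4* (2.63), *Thbs1* (1.80) and *Tnc* (0.92) lie to the right of 0 and *Tnxb* (-3.08) to the left, and of the 6 genes that did not pass the test (diamonds) *Spp1* has the widest interval.

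Promoters of *Thbs4* and *Tnc*, which rose, and of *Tnxb*, which fell, are printed so that genes that moved in opposite directions can be set side by side. RefSeq promoters of GRCm38.p6 were matched by symbol for 8 of the 10 genes, with none for *Thbs1* and *Comp*. The 250 bases before the start site are given in the direction of transcription. Capitals mark the motifs searched on both strands, CAGAC of SMAD proteins (in 42.2% of 32851 RefSeq promoters), TGANTCA of AP-1 (6.75%), GGAATG of TEAD factors (12.6%), TATAAA, the TATA box (12.4%), and the CArG box of serum response factor (1.47%). The *Thbs4* promoter lies on the minus strand at chr13:92794819-92795068, that of *Tnc* on the minus strand at chr4:64047016-64047265 and that of *Tnxb* on the plus strand at chr17:34670285-34670534.
Thbs4 promoter: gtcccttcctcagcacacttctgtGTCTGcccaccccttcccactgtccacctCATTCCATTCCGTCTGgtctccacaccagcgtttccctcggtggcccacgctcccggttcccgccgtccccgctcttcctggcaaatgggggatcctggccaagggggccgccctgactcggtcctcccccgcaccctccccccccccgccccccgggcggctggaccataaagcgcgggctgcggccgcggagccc
Tnc promoter: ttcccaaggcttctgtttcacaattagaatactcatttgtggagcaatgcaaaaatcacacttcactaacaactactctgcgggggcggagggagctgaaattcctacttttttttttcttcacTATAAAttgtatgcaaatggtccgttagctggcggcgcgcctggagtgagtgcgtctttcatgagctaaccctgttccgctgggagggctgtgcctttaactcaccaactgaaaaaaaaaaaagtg
Tnxb promoter: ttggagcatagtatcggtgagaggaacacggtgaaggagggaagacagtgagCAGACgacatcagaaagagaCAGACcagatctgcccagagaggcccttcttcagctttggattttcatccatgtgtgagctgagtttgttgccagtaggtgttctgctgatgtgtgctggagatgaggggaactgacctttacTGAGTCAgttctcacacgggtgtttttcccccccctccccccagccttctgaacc

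The *Thbs4* promoter held 2 SMAD motifs and 2 TEAD motifs, which overlap each other by 1 base, and was rich in G and C (70.8%, against a median of 52.4% over all promoters). That of *Tnc* held the letters TATAAA, 126 bases before the start, and no other motif searched. The 250 bases before a further RefSeq start of *Tnc*, 79 bases downstream, held 1 SMAD motif and the same TATAAA. These letters lie 205 bases before the further start, and whether they act as a TATA box was not tested. That of *Tnxb*, which fell, held 2 SMAD motifs and 1 AP-1 motif. The *Thbs2* promoter, whose gene did not pass the test, held 2 SMAD motifs as well. SMAD motifs were thus found before genes that rose, fell or did not pass the test. A match is a run of letters and not a measured binding site.

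Several of these proteins attach to integrins through the tripeptide arginine-glycine-aspartate. Codons for it were found in the longest coding sequence of 6 of the 10 genes, namely *Thbs1*, *Thbs2*, *Thbs4* (at 2 places), *Comp*, *Spp1* and *Tgfbi*, and in 7.25% of 21584 genes of GENCODE M21. None was found in *Thbs3*, *Tnc*, *Tnxb* or *Sparc*. As with the promoter motifs, a match is a run of letters, and whether each site attaches to integrins was not tested. The codons are shown in capitals with 15 bases on each side, to set the trimer, pentamer and other genes side by side. The window of *Thbs1* lies at chr2:118122674-118122905 and that of *Thbs2* at chr17:14671469-14673150, both across an exon junction with the intron left out. Those of *Thbs4* lie at chr13:92776976-92777014 and chr13:92762773-92762811, and that of *Comp* at chr8:70377205-70377243. Those of *Spp1* and *Tgfbi* lie at chr5:104439466-104439504 and chr13:56637140-56637178.
Thbs1: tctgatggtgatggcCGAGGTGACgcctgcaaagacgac
Thbs2: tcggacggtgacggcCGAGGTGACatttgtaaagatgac
Thbs4, first place: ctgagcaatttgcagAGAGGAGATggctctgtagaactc
Thbs4, second place: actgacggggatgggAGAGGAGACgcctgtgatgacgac
Comp: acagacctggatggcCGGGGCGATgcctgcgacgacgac
Spp1: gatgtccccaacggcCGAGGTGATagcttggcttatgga
Tgfbi: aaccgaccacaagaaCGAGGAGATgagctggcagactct

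Of the 6 genes with these codons, *Thbs1* and *Thbs4* were called higher with TGFβ and the other 4 were not called, beside 40.7% of all genes tested called in either direction and 20.5% called higher. The pentamer gene *Thbs4* thus has these codons at more places than any other of the 10 genes.

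*Thbs1* encodes thrombospondin 1, a trimer that binds CD36, CD47 and latent TGFβ. The gene (ENSMUSG00000040152) lies on the plus strand at chr2:118111876-118127133 of GRCm38. Its level was 1462, 1153 and 1549 CPM in vehicle libraries A, B and C, and 5035, 4269.7 and 5149.9 CPM with TGFβ. Every TGFβ library was far above the highest vehicle library. The mean rose from 1388 ± 208 CPM (SD, n = 3) to 4818 ± 479 CPM, a log2 fold change of 1.80 (SE 0.12, 95% interval 1.51 to 2.08) or 3.47-fold (adjusted p = 4.17e-05). Over all 6 libraries, *Thbs1* ranked 21 of the 14334 genes tested by mean CPM and 43 by mean CPM per kilobase of exon.

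*Thbs2* encodes the other trimeric thrombospondin, known for limiting angiogenesis and for collagen fibril assembly. It lies on the minus strand at chr17:14665500-14694235. Vehicle libraries had 803, 1030.4 and 1026 CPM, and TGFβ libraries 844, 943 and 1012 CPM. The groups overlapped almost wholly. The log2 fold change was -0.03 (SE 0.11, adjusted p = 0.844), with a 95% interval from -0.28 to 0.22, that is, 0.822 to 1.17 times the vehicle level. The trimer genes were also set against each other within each library, where scaling plays no part. Counts of *Thbs1* were 1.12 to 1.82 times those of *Thbs2* in vehicle and 4.53 to 5.96 times with TGFβ. The log2 ratio was higher by 1.83 in the TGFβ libraries, and the ranges of the groups were apart (p = 0.1 in a two-sided exact permutation test, which with 3 libraries against 3 can give no smaller value, and 0.1 adjusted over 5 ratios).

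*Thbs4*, a pentameric thrombospondin known from tendon and from the injured heart, had the largest log2 rise of the 10 genes and the lowest CPM in both groups. Counts were 22, 23 and 27 in vehicle and 98, 118 and 198 with TGFβ. In CPM these were 0.691, 0.775 and 0.905 in vehicle, and 3.58, 4.23 and 6.95 with TGFβ. The lowest TGFβ library stood well above the highest vehicle library, and TGFβ library C was far higher than A and B. The log2 fold change was 2.63 (SE 0.29, 95% interval 1.95 to 3.32) or 6.21-fold (adjusted p = 0.000377), the interval in folds being 3.87 to 9.97. Its rank by log2 fold change was 51 from the top among 14334 genes, and by mean CPM 11296. *Thbs4* lies on the minus strand at chr13:92751590-92794818, and its promoter is the GC-rich sequence with 2 TEAD motifs printed above.

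*Thbs3* and *Comp*, the other pentamer genes, did not pass the test. *Thbs3* (chr3:89215180-89226837, plus strand) had 32.1, 35.8 and 40.1 CPM in vehicle, and 28.3, 30.6 and 34.9 CPM with TGFβ. *Comp* (chr8:70373558-70382066, plus strand), best known from cartilage and tendon, had 10.3, 11.4 and 12.3 CPM in vehicle, and 13.1, 11.9 and 14.1 CPM with TGFβ. Their groups overlapped and their log2 fold changes had opposite signs. The value was -0.20 for *Thbs3* (SE 0.10, 95% interval -0.43 to 0.03, adjusted p = 0.146) and 0.20 for *Comp* (SE 0.09, 95% interval -0.01 to 0.42, adjusted p = 0.123). *Thbs3* had an adjusted p of 0.0494 without TGFβ library C. On the opposite strand, exons of *Mtx1* cover 6.59% of the exon bases of *Thbs3*, and *Mtx1* held 3419 counts, 57.9% as many as *Thbs3*. Whether the counting used strand is not stated, so the value of *Thbs3* is uncertain by the reads of that overlap. Relative to *Thbs4*, both genes were lower with TGFβ. Counts of *Thbs3* were 44.3 to 46.5 times those of *Thbs4* in vehicle and 5.03 to 7.90 times with TGFβ. Counts of *Comp* were 13.6 to 14.9 times those of *Thbs4* in vehicle and 2.03 to 3.65 times with TGFβ. For each of these ratios the groups did not overlap (exact permutation p = 0.1). Both ratios rest mainly on the rise of *Thbs4* from 22 to 27 counts in each vehicle library. They add no separate result for *Thbs3* or *Comp*.

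Compared per kilobase of exon, the thrombospondin transcripts were mainly *Thbs1* and *Thbs2* in every library. *Thbs1* made up 60.6% of the summed thrombospondin level in vehicle (54.5 to 65.8%) and 84.4% with TGFβ (82.8 to 86.3%). *Thbs2* made up 36.3% in vehicle (31.4 to 42.2%) and 14.2% with TGFβ (12.5 to 15.9%). The share of *Thbs2* was thus lower in all 3 TGFβ libraries while its own level did not pass the test of a difference. *Thbs3* made up 1.99% in vehicle and 0.692% with TGFβ, *Comp* 1.02% and 0.468%, and *Thbs4* 0.0639% and 0.158%. The summed level was 376 ± 34.2 CPM per kilobase (SD, n = 3) in vehicle and 939 ± 80.9 with TGFβ.

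**Figure D3:**
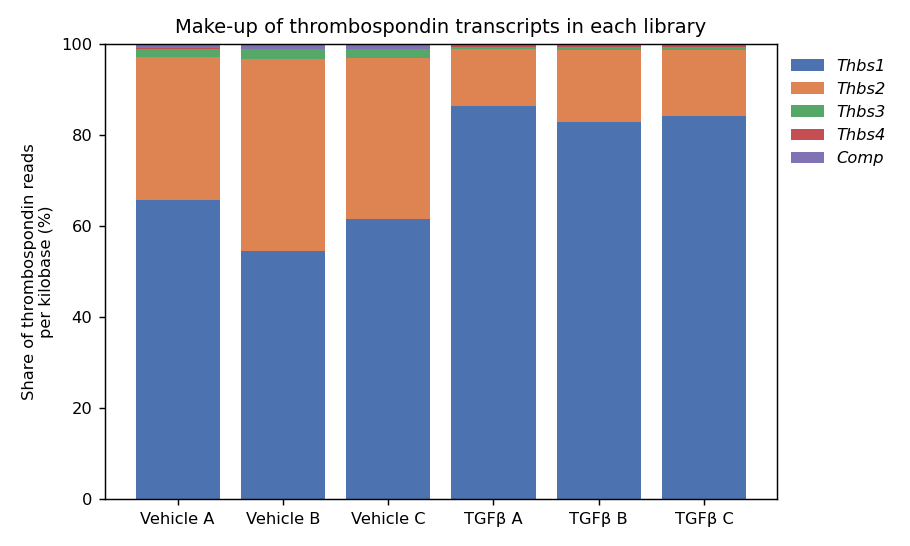
Share of each of the 5 thrombospondin genes in their summed reads per kilobase of exon (%), as stacked bars for each of the 6 libraries. *Thbs1* takes 54.5 to 65.8% of the bar in vehicle and 82.8 to 86.3% with TGFβ.

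*Tnc* encodes tenascin C, a hexameric glycoprotein that loosens cell adhesion and appears in developing and wounded tissue. It lies on the minus strand at chr4:63959785-64047015. The level was 401, 407 and 419 CPM in vehicle, and 758, 775 and 791 CPM with TGFβ. Replicates lay close together, with a coefficient of variation of 2.22% in vehicle and 2.13% with TGFβ, and the groups were far apart. The log2 fold change was 0.92 (SE 0.04, 95% interval 0.82 to 1.02), or 1.89-fold (adjusted p = 8.71e-06).

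*Tnxb* encodes tenascin X, which is bound to collagen fibrils and whose loss in people causes a form of Ehlers-Danlos syndrome. Its counts were 1924, 2425 and 2575 in vehicle and 226, 264 and 262 with TGFβ. In CPM these were 60.5, 81.8 and 86.3 in vehicle, and 8.26, 9.45 and 9.19 with TGFβ. The lowest vehicle library was several times higher than any TGFβ library. The log2 fold change was -3.08 (SE 0.14, 95% interval -3.42 to -2.75), so *Tnxb* was 8.48-fold lower with TGFβ (adjusted p = 8.73e-06). This fall was the 16th largest among the 14334 genes tested, and 44 genes had a larger absolute log2 fold change in either direction. *Tnxb* lies on the plus strand at chr17:34670535-34719815. Of all 75-base windows of its longest transcript, 4.11% also occur in transcripts of other genes, so a small part of its reads could be shared. The tenascins were set against each other in the same way. Counts of *Tnc* were 4.85 to 6.63 times those of *Tnxb* in vehicle and 82.0 to 91.7 times with TGFβ, a difference of 3.99 in the log2 ratio (exact permutation p = 0.1, adjusted p = 0.1 over 5 ratios).

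*Sparc* encodes osteonectin, a collagen-binding protein needed for fibril maturation, and was the most abundant of the 10 transcripts. It ranked 5 of 14334 genes by mean CPM and 3 by CPM per kilobase. Vehicle libraries had 9631, 9939.9 and 9935 CPM, and TGFβ libraries 10581, 10922 and 10927 CPM. All 3 TGFβ libraries were above all vehicle libraries, but by little. The log2 fold change was 0.14 (SE 0.06, 95% interval 0.00 to 0.27) or 1.10-fold. *Sparc* missed the threshold in edgeR (adjusted p = 0.0927) and in limma-voom (adjusted p = 0.0562) while passing it in DESeq2 (adjusted p = 0.0138). *Sparc* was the fifth gene of the 10 with groups that did not overlap, besides the 4 called genes. The ranges of the groups did not overlap in 53.3% of all genes tested. With both C libraries left out, 8 of the 10 genes and 71.2% of all genes tested had ranges that did not overlap. Counts of *Sparc* were 6.41 to 8.62 times those of *Thbs1* in vehicle and 2.10 to 2.56 times with TGFβ. *Sparc* lies on the minus strand at chr11:55394500-55423183.

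*Spp1* encodes osteopontin, a cytokine-like matrix protein made by macrophages as well as by fibroblasts. Its levels were 34.3, 25.9 and 58.8 CPM in vehicle libraries A, B and C, and 52.0, 38.4 and 83.3 CPM with TGFβ. Libraries differed more within a group than the group means did, and in each group library B was the lowest and library C the highest. The coefficient of variation was 43.0% in vehicle and 39.7% with TGFβ, against 1.80% and 1.83% for *Sparc*. The log2 fold change was 0.55 (SE 0.35, 95% interval -0.26 to 1.35, adjusted p = 0.249), an interval of 0.835 to 2.55 in folds. Leaving out vehicle library C gave a log2 fold change of 0.94 (adjusted p = 0.0530), and leaving out TGFβ library C gave 0.18 (adjusted p = 0.691). With both C libraries left out, an alternative added after seeing the data, the log2 fold change was 0.58 and passed the threshold (adjusted p = 0.0368). That setting took out the highest *Spp1* value of each group, and so reduced the spread within groups.

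Summed macrophage and leukocyte markers and summed endothelial markers were highest in library C of each group, as was *Spp1*. This was not particular to *Spp1*, since *Thbs1*, *Thbs3*, *Thbs4*, *Comp* and *Tnc* were also highest in library C of each group. The fibroblast sum was highest there too (42770 CPM in vehicle, 44957 CPM with TGFβ). So was the sum of platelet and megakaryocyte markers (71.3 CPM in vehicle, 74.4 CPM with TGFβ). Most of it came from the integrin chain *Itgb3* (49.2 CPM in vehicle library C, 52.3 CPM in TGFβ library C), which is also listed among the receptors below. Single markers did not all follow, and the endothelial *Tek* was lowest in library C of each group (74.6 CPM in vehicle, 83.8 CPM with TGFβ). Summed levels of the macrophage and leukocyte markers were 258, 273 and 368 CPM in vehicle libraries A, B and C, and 227, 243 and 336 CPM with TGFβ. Of 10 such markers, 8 were tested and none was called, against 40.7% of all genes tested. *Lyz2*, a lysozyme gene of macrophages, gave most of the sum, with means of 232 CPM in vehicle and 202 CPM with TGFβ, and *Cd3e* of T cells was not listed. Summed endothelial markers were 462, 528 and 716 CPM in vehicle libraries A, B and C, and 423, 474 and 586 CPM with TGFβ. The leukocyte and endothelial sums were lowest in library A of each group, whereas *Spp1* was lowest in library B. None of the 8 endothelial markers was called, against the same 40.7%. Summed mesothelial markers were instead highest in library A of each group, at 83.8 CPM in vehicle and 41.8 CPM with TGFβ. The sums of cardiomyocyte markers, of Schwann cell markers and of chondrocyte and tendon markers were also highest in library A of each group. The part of these cells in the levels of *Spp1* was not tested. *Spp1* lies on the plus strand at chr5:104435118-104441050, and 7.47% of its 75-base windows also occur in other transcripts. An overlapping gene model on the same strand, *Gm42793*, covers 18.75% of the exon bases of *Spp1* and held 4 counts. How the counting treated reads in that overlap is not stated.

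**Figure D4:**
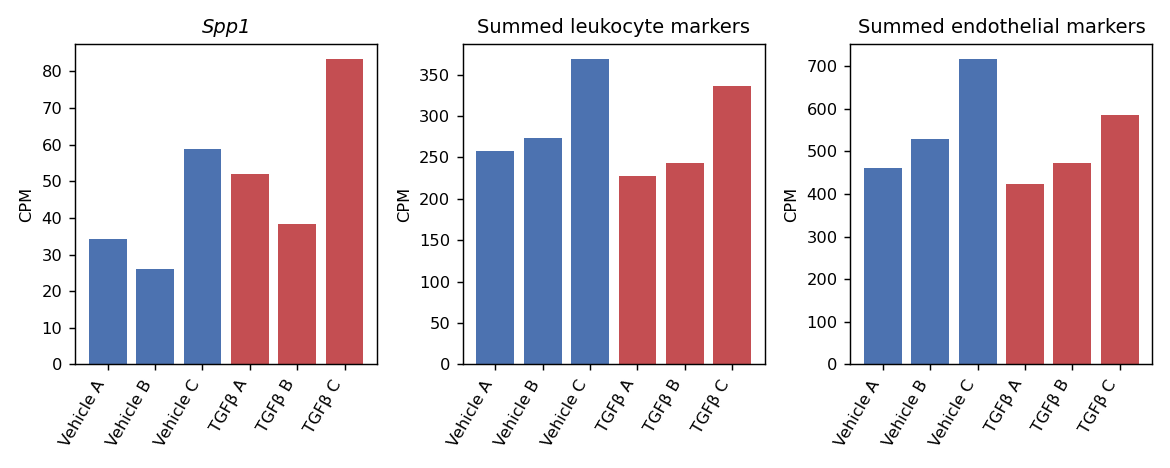
Level of *Spp1* and summed levels of the macrophage and leukocyte markers and of the endothelial markers, in CPM, in each of the 6 libraries (blue, vehicle; red, TGFβ). Library C has the highest bar of its group in all 3 panels, with *Spp1* at 58.8 CPM in vehicle and 83.3 CPM with TGFβ. The lowest bar of each group is library B for *Spp1* and library A for both sums.

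*Tgfbi* encodes TGFβ-induced protein, named for its induction in another cell line, which binds integrins and collagen. It did not pass the test here. The level was 33.5, 41.1 and 37.7 CPM in vehicle, and 37.0, 47.3 and 44.1 CPM with TGFβ. The groups overlapped, and the log2 fold change was 0.19 (SE 0.10, adjusted p = 0.177), with a 95% interval of -0.05 to 0.43 or 0.967 to 1.35 in folds. *Tgfbi* lies on the plus strand at chr13:56609523-56639562.

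Per kilobase of exon, the order of mean levels in vehicle was *Sparc* (2596 CPM per kilobase), *Thbs1* (229), *Thbs2* (136), *Tnc* (52.6), *Spp1* (24.1), *Tgfbi* (9.93), *Thbs3* (7.47), *Tnxb* (6.24), *Comp* (3.82) and *Thbs4* (0.240). With TGFβ, *Tnxb* fell from the eighth to the lowest place, at 0.735 CPM per kilobase, below *Thbs4* at 1.495. *Tnc* at 99.7 came nearer to *Thbs2* at 133. In vehicle, the neighbors *Thbs3* and *Tnxb* lay within their standard deviations of each other (0.825 and 1.13), although *Thbs3* was the higher in each of the 3 libraries. *Thbs1* and *Thbs2*, with standard deviations of 34.3 and 18.5, were in the same order in all 3 vehicle libraries.

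Thrombospondin 4 and *Comp* are also products of tendon and cartilage, and transcription factors and matrix genes of those tissues were measured alongside. Of 8 chondrocyte and tendon markers, 7 were tested and 5 were higher with TGFβ (71.4%, against 20.5% of all genes tested). These were *Acan* (log2 fold change 2.35), *Col2a1* (2.27), *Scx* (2.04), *Mkx* (1.31, named after its values were seen, with means of 1.23 and 3.04 CPM) and *Sox9* (0.49). *Tnmd* (0.51, adjusted p = 0.164) and *Col9a1* (-0.45, adjusted p = 0.555) were not called, and *Matn1* was too low to be tested. The summed level of the 8 was 131, 115 and 89.5 CPM in vehicle libraries A, B and C, and 232, 204 and 191 CPM with TGFβ. Within each group this sum fell from A to C, whereas *Thbs4* rose from A to C and *Comp* was highest in library C. The list was chosen with earlier results of these data known, so its share is a description. Of 8 smooth muscle and pericyte markers, 3 were higher (*Cnn1*, *Smtn* and *Cspg4*), or 37.5%, against 20.5% of all genes tested. *Myh11* (log2 fold change -0.26, adjusted p = 0.205), *Des*, *Rgs5*, *Kcnj8* and *Abcc9* were not called. The sum of the 8 was 160 to 194 CPM in vehicle and 216 to 294 CPM with TGFβ. The part of such cells in the levels of *Thbs4*, *Thbs1* and *Tnc* was not tested. None of the 3 cardiomyocyte, 5 mesothelial and 4 Schwann cell markers tested was called, against 40.7% of all genes tested. Their log2 fold changes ran from -1.45 (*Lrrn4*, adjusted p = 0.242) to 0.61 (*Msln*, adjusted p = 0.110), so not called does not mean unchanged. Of 4 platelet markers tested, 1 was higher and 1 lower, or 50% called, against 40.7% of all genes tested.

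Receptors and other partners on the cell surface moved in both directions. Of 20 such genes, 19 were tested, 10 were higher with TGFβ, 6 were lower and 3 were not called. The share called was 84.2%, against 40.7% of all genes tested, and the median log2 fold change was 0.21, against -0.0013. This list, like the other gene lists, was chosen with earlier results of these data known, so the share is a description and not a test. The largest rises were those of *Itga5*, the α5 chain of the fibronectin receptor (181 ± 12.03 to 401 ± 56.9 CPM, log2 fold change 1.15, adjusted p = 0.000121), *Ptprz1*, a phosphatase that binds tenascin C (1.09, adjusted p = 0.00498), and *Itga4* (1.07, adjusted p = 0.00691). *Itga8*, an integrin chain that pairs with β1 and binds tenascin C and osteopontin, fell by 1.03 on the log2 scale (16.3 ± 2.03 to 7.99 ± 0.607 CPM, adjusted p = 0.000264).

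The receptors known for thrombospondin 1 are given here after their values were seen. *Cd36* fell by 0.81 on the log2 scale (31.2 ± 2.38 to 17.9 ± 1.62 CPM, SD, n = 3, edgeR adjusted p = 0.000275) and *Cd47* by 0.50 (187 ± 4.89 to 133 ± 4.56 CPM, adjusted p = 0.000113). *Calr*, or calreticulin, rose by 0.41, and its partner *Lrp1* did not pass the test (0.13, adjusted p = 0.345). *Cacna2d1*, a calcium channel subunit that binds thrombospondins, rose by 0.19 (adjusted p = 0.00865), and the integrin chains *Itga3* and *Itgb1* rose by 0.48 and 0.21 (adjusted p = 0.0259 and 0.00941). Among receptors of osteopontin and TGFβ-induced protein, *Itgav* (0.39) and *Itgb5* (0.46) were higher, while *Itgb3* (0.06, adjusted p = 0.824) and *Cd44* (0.31, adjusted p = 0.0624) did not pass the test. *Sdc4*, *Egfr* and *Tlr4*, which bind tenascin C or take part in its signaling, were lower, with log2 fold changes of -0.91, -0.74 and -0.65. *Itga9*, a further integrin chain of the list, was higher (log2 fold change 0.46, adjusted p = 0.0296), as was the tenascin C partner *Ptprz1* named above.

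**Figure D5:**
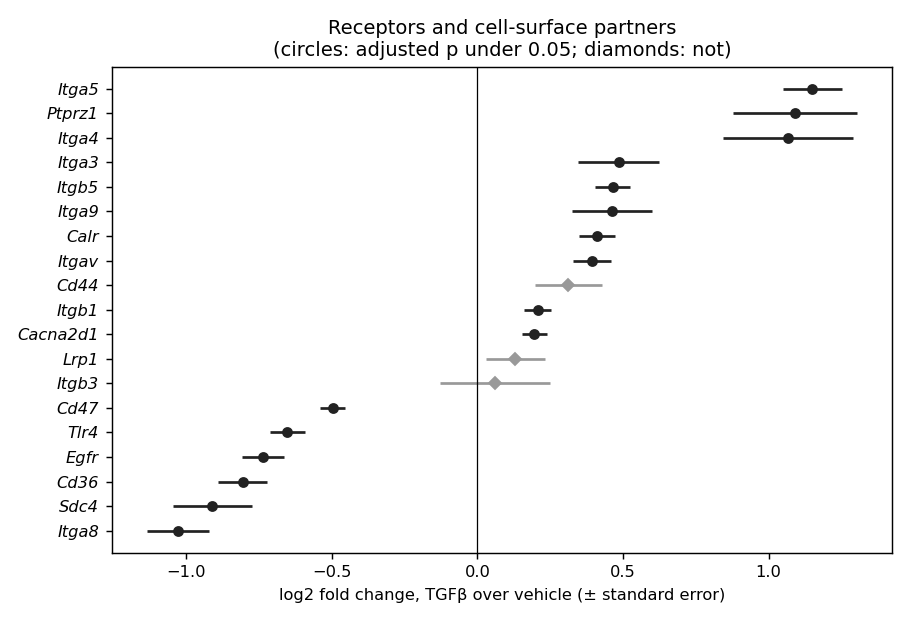
Change with TGFβ, as log2 fold change over vehicle, of the 19 receptors and cell surface partners tested, with standard errors from edgeR's quasi-likelihood fit (n = 3 libraries a group). *Itga5* (1.15), *Ptprz1* (1.09) and *Itga4* (1.07) lie furthest to the right and *Itga8* (-1.03) furthest to the left; diamonds mark the 3 genes that did not pass the test.

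Enzymes that cleave or cross-link matricellular proteins also moved in both directions. Of 12, 10 were tested, 2 were higher, 5 lower and 3 not called, with 70% called against 40.7% of all genes tested (20.5% higher and 20.1% lower). Their median log2 fold change was -0.22, against -0.0013. *Adamts7* and *Adamts12*, proteases that cleave the *Comp* product, moved in opposite directions. *Adamts7* fell by 1.18 on the log2 scale (93.6 ± 17.7 to 41.3 ± 6.96 CPM, adjusted p = 0.000845), and *Adamts12* rose by 1.17 (156 ± 16.2 to 349 ± 65.2 CPM, adjusted p = 0.000514). *Mmp3*, or stromelysin, fell by 1.36 (870.0 ± 319 to 338 ± 141 CPM, adjusted p = 0.0126) and *Mmp9* by 0.98 (5.40 ± 1.92 to 2.72 ± 0.809 CPM, adjusted p = 0.0397).

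Of 16 relatives of the 10 genes by domain or gene cluster, 7 had enough counts to be tested, 2 were higher, 1 was lower and 4 were not called, a share called of 42.9% that is close to the 40.7% of all genes tested. *Postn*, or periostin, which shares its fasciclin domains with *Tgfbi*, rose by 1.55 on the log2 scale (967 ± 134 to 2830.3 ± 333 CPM, adjusted p = 6.49e-05), unlike *Tgfbi*. *Fstl1*, a relative of *Sparc*, rose by 0.66 (3227 ± 276 to 5109 ± 216 CPM), and *Smoc1*, another, fell by 0.67 (59.2 ± 5.05 to 37.3 ± 6.55 CPM). The tenascin genes *Tnr* and *Tnn* were too low to be tested, with means of 0.345 CPM or less in each group, so *Tnc* and *Tnxb* were the tenascins detected above the filter.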

How the data were processed

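The deposited table holds counts of reads per gene and library, made by the authors from stranded poly(A) libraries (1 µg of RNA, single-end reads of 75 bases). Per the labels, the build was mm10 and DESeq2 was used. The aligner, the counter and its use of strand are not given in the sources used here. The authors' own comparison columns (means, fold changes, p-values) were not used. Libraries held 27851677 to 31072338 counts. Intervals from the fit are 95% confidence intervals of the log2 fold change, with a standard error that rests on the spread between libraries.

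TGFβ was compared with vehicle over all 6 libraries by the quasi-likelihood test of edgeR 4.0.16 (R 4.3.3). Libraries were scaled by TMM, genes with low counts were removed by filterByExpr, and p-values were adjusted over the 14334 genes left (Benjamini-Hochberg). The biological coefficient of variation was 7.97%. CPM are counts over TMM-scaled library sizes, and CPM per kilobase divide by the union of exons in GENCODE M21, whose identifiers matched 25086 of 25140 genes. Ratios were compared with two-sided exact permutation tests (scipy 1.17.1). Promoters came from RefSeq (GRCm38.p6). The steps were tested on simulated data with 200 of 23883 genes changed. There, edgeR recovered 82.5% of the changed genes, and false calls were 6.78% of the calls in edgeR, 5.81% in limma-voom and 12.7% in DESeq2. The share of changed genes was far below the 40.7% of genes called in the real data, so these rates may not hold there. Alternatives were DESeq2 1.42.0, limma-voom (limma 3.58.1), other scalings and filters, a threshold of 0.01 and each library left out.

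The members and gene lists were chosen with earlier results of these data known, so the shares called in a list are descriptions and not tests. Genes named from a list are the called genes with the largest absolute log2 fold change, up to 4 a list, with a mean of at least 5 CPM in 1 group, and the genes of the TGFβ response list, of which some results are not reported here. All other genes besides the members were named after their values were seen.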

Additional observations from a re-analysis of the deposited data

How the results depend on the processing

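*Thbs1*, *Thbs4*, *Tnc* and *Tnxb* kept their direction and stayed past the threshold in all 14 alternatives, with log2 fold changes of 1.68 to 1.88, 2.29 to 2.82, 0.90 to 0.94 and -3.23 to -2.99. Leaving out each library in turn moved *Thbs2* between -0.14 and 0.035, past the threshold in no case, and *Thbs3* between -0.30 and -0.12, with an adjusted p under the threshold without TGFβ library C (0.0494). *Sparc* passed the threshold in DESeq2 (log2 fold change 0.13, adjusted p = 0.0138), and *Spp1* with both C libraries left out (0.58, adjusted p = 0.0368). In that last setting 8 of the 10 genes had groups that did not overlap, against 5 with all libraries, but 2 libraries against 2 separate more readily, and the share over all genes tested was 71.2% there and 53.3% with all libraries. Leaving out both C libraries took away the last-listed library of each group, and with it the highest *Spp1* value of each. No paired analysis was possible because the columns of the table carry no replicate number. Column order was not used to pair libraries in any fit, so the planned replicate block was not run. *Thbs4* had the largest standard error of the 4 called genes, with 22 to 27 counts in each vehicle library and a coefficient of variation of 36.3% with TGFβ.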
